A study of Mus musculus with 6 samples.

Results

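Mt1, Mt2 and Slc30a1 were described in T cells from mouse brain tumors, 3 of the 32285 genes in the deposited matrices. Mt1 and Mt2 encode metallothioneins and Slc30a1 encodes a zinc exporter of the plasma membrane. The genes were chosen with results of these data known. Mt2 had one of the highest ratios of day 19 to day 13 in CD4 T cells and of expanded to single CD8 T cells, so all 3 genes are treated as chosen by measured values. Their levels are therefore a description, and no test is given for them.

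The cells came from CT2A tumors growing inside the skull. CT2A is a mouse glioma line. The hosts were C57BL/6J mice of WT genotype, aged 6 to 8 weeks, and the groups are the time points, day 13 and day 19. CD3+ cells were sorted from 16 mice at day 13, with 4 mice in each pooled replicate, and from 4 mice at day 19, and were run on 10x 5′ chemistry. Each day was 1 capture, with gene expression, antibody tag and T cell receptor (TCR) libraries. Time after implantation, capture, and the number and pooling of mice therefore cannot be told apart. The receptor contigs of each day were deposited in 4 tables, called sets 1 to 4 here. The labels do not tie a set to a mouse or pool, so the sets are used to show spread and not as replicates for a test.

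A barcode entered if it had a receptor contig, at least 5000 gene UMIs (unique molecular identifiers, each 1 captured molecule), at most 10% mitochondrial UMIs and at most 3 UMIs of C1qa, Lyz2 and Csf1r together. This left 3775 of 8359 contig barcodes at day 13 and 2159 of 4295 at day 19. The limit on the 3 myeloid genes removed 857 barcodes (18.5% of those at the UMI minimum) at day 13 and 1056 (32.8%) at day 19. Median depth was 7126 and 8792 UMIs. Cells with Cd8a or Cd8b1 UMIs and no Cd4 were called CD8 (2646 at day 13, 1436 at day 19), and those with Cd4 alone CD4 (499 and 377). Every CD8 T cell had a UMI of the 5 T cell markers Cd3d, Cd3e, Cd3g, Trac and Cd2, which summed to 3594 CPM at day 13 and 3666 CPM at day 19. The same 13 barcodes passed at both days. Levels are UMIs of a gene per 1000000 gene UMIs over all cells of a group (CPM), with exact Poisson 95% intervals. Shares are of cells with a UMI after each cell was thinned to 5000 UMIs. Intervals cover counting error only.

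Metallothioneins are small cysteine-rich proteins that bind zinc and copper in the cytoplasm. When free zinc rises, the transcription factor MTF1 binds metal response elements in the promoters of Mt1, Mt2 and Slc30a1 and raises their transcription, so that zinc is both bound and pumped out. Metallothionein genes also respond to glucocorticoids and to oxidative stress. In CD8 T cells, metallothioneins are known from work on dysfunctional cells of mouse tumors.

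All 3 genes are on the plus strand of the RefSeq annotation of GRCm38.p6, a build of the same series as the mm10 named in the submitters' processing notes. Mt2 occupies chr8:94172618-94173567 and Mt1 chr8:94178883-94180327, with 5315 bases between them. Slc30a1 occupies chr1:191906697-191913248. The core of the metal response element was searched as TGCACNC or TGCGCNC on both strands in the 250 bases before each start site. The sequences below are shown because these cores are what the 3 promoters are known to share, and the cores are in capitals. A core on the minus strand reads as its reverse complement. For Mt1 and Slc30a1, 30 bases around the core are printed, because the gene record begins 206 and 84 bases before the start site used; for Mt2 all 250 bases are printed.
Mt1, chr8:94179054-94179083, plus strand: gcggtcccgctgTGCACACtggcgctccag
Slc30a1, chr1:191906726-191906755, plus strand: aacgggggttccGAGTGCAaagcaaagttt
Mt2, chr8:94172368-94172617, plus strand: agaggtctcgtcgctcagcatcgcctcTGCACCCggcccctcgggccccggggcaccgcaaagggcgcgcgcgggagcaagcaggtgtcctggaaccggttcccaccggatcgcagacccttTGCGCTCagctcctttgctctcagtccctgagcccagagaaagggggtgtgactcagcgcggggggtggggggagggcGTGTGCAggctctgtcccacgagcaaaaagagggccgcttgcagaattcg
Mt2 held 3 cores, Mt1 held 1 and Slc30a1 held 1. With the 50 bases after the start site added, the windows of 300 bases held 4, 3 and 2. Among 32851 promoter windows of the same length in the RefSeq table, 21.4% held at least 1 core and 1.26% held at least 3 (25.7% and 1.97% for 300 bases). The counts depend on the window used, as that of Mt1 rose from 1 to 3 with 50 more bases, and they do not cover a whole promoter. A match of letters is a description and not a site of binding.

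Mt1 in CD8 T cells was 63.9 CPM at day 13 (60.8 to 67.2, from 1545 UMIs) and 115 CPM at day 19 (109 to 120, from 1836 UMIs). Across sets 1 to 4 it was 45.1, 40.5, 48.0 and 147 CPM at day 13 and 127, 125, 62.3 and 134 CPM at day 19. Set 4 of day 13 stood above the other day-13 sets and above all day-19 sets, so the days overlapped. The log2 ratio of day 19 to day 13 was 0.84 (0.74 to 0.94). Thinned to equal depth, 9.11% of CD8 T cells had an Mt1 UMI at day 13 and 15.1% at day 19 (13.7% and 21.8% before thinning).

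Mt2 in CD8 T cells was 9.31 CPM at day 13 (8.13 to 10.6) and 11.04 CPM at day 19 (9.47 to 12.8). Its sets read 5.31, 3.17, 4.20 and 32.2 CPM at day 13, with set 4 again apart, and 10.2, 10.1, 6.26 and 18.2 CPM at day 19. The log2 ratio was 0.25 (-0.05 to 0.54). Slc30a1 was 9.64 CPM at day 13 and 8.48 CPM at day 19, a log2 ratio of -0.18 (-0.50 to 0.13). Its sets ran from 7.58 to 10.4 CPM at day 13 and from 6.72 to 11.8 CPM at day 19, an overlap of the days in which no set stood apart. None of the 3 genes was 2-fold higher at day 19 in CD8 T cells (log2 ratio of 1 or more), as 1.61% of the 10052 genes tested were.

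The Mt1 ratio between the days in CD8 T cells moved with 1 clonotype of day-13 set 4, described further on. Without it Mt1 was 41.7 CPM at day 13, set 4 was at 29.4 CPM, and the log2 ratio was 1.46. The day-13 sets then all lay below the day-19 sets. Mt2 without that clonotype was 3.83 CPM, and its ratio 1.53. The Mt1 ratio was 1.61 without the deepest 5% of cells and 1.55 without cycling cells. At day 19, 1 barcode held 281 of the 1836 Mt1 UMIs; without it the level was 97.1 CPM and set 4 of that day was at 48.5 CPM, close to day-13 set 3.

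In CD4 T cells Mt1 was 42.9 CPM at day 13 (37.1 to 49.4, from 192 UMIs) and 136 CPM at day 19 (124 to 148, from 512 UMIs). The sets were 39.0, 24.5, 69.9 and 33.8 CPM at day 13 and 221, 161, 61.9 and 117 CPM at day 19. Set 3 was the highest of day 13 and the lowest of day 19, and there the days overlapped. The log2 ratio was 1.66 (1.42 to 1.91), 0.81 without cycling cells and 1.07 with at most 10 Mt1 UMIs counted per cell. Mt2 had 8 UMIs in CD4 T cells at day 13, 1.79 CPM, and 49 at day 19, 13.0 CPM. Its sets were at 0 to 4.37 CPM at day 13 and 5.62 to 35.4 CPM at day 19, and its log2 ratio was 2.86 (1.77 to 4.15). This contrast took part in the choice of the genes, so nothing is read from the gap between the sets. Slc30a1 read 11.8 CPM at day 13 and 6.64 CPM at day 19 (53 and 25 UMIs), a log2 ratio of -0.84 (-1.58 to -0.12) that was -0.04 with no limit on the myeloid genes and -0.17 without day-19 set 2. Of the 3 members Mt1 alone had the 100 UMIs needed to be counted among 7289 genes, and it was past a log2 ratio of 1, as were 1.21% of those genes. The 100 UMIs were taken over both sums together. With 100 required in each sum, Mt2 had no call in any of the 13 comparisons counted this way, and Mt1 kept 5 of its 8, without those of Havcr2+ over Tcf7+ cells and of 1 clonotype described further on.

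**Figure D1:**
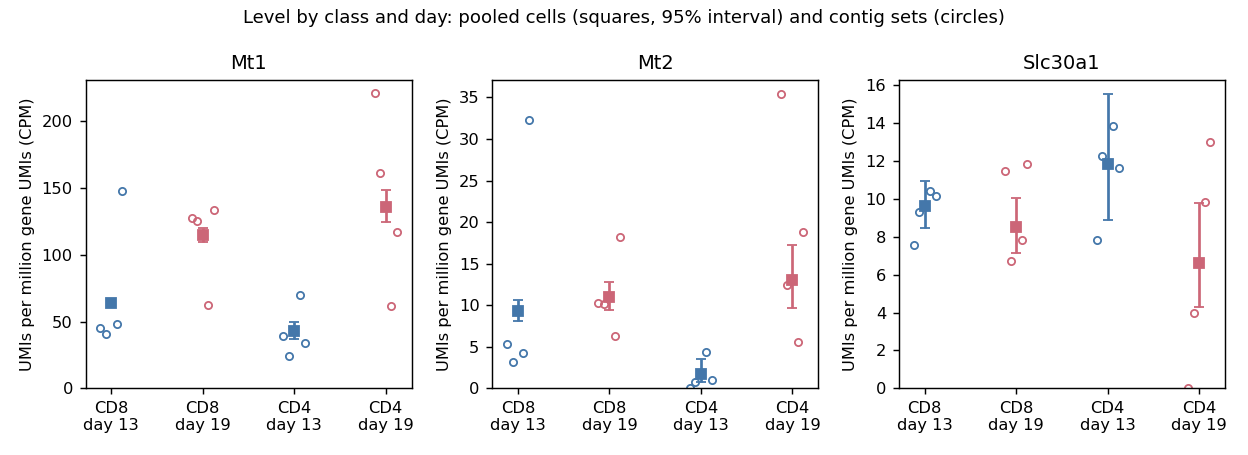
Levels of Mt1, Mt2 and Slc30a1 in CPM by T cell class and day: the level over all cells with its 95% counting interval (square; day 13 blue, day 19 red), and each contig set (circle). Mt1 in CD8 T cells of day 13 has 1 set at 147 CPM above the others at 40.5 to 48.0 CPM, while the sets of Slc30a1 in CD8 T cells lie between 6.72 and 11.8 CPM on both days.

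By summed UMIs, CD8 T cells had more Mt1 than CD4 T cells at day 13 and less at day 19. At day 13 the log2 ratio of CD8 to CD4 T cells was 0.57 (0.36 to 0.80; higher in 3 of 4 sets), and at day 19 it was -0.25 (-0.39 to -0.10; higher in 2 of 4 sets). Without the day-13 clonotype the first was -0.04, and the second was 0.36 without cycling cells, 0.024 without the deepest 5% of cells and 0.077 without day-19 set 2. By share of cells at equal depth, Mt1 was in fewer CD8 than CD4 T cells on both days (9.11% against 10.8% and 15.1% against 19.6%). Mt2 at day 13 was higher in CD8 T cells by 2.38 (1.38 to 3.61), which was 0.97 to 4.20 under the alternatives, and Slc30a1 was lower in CD8 T cells in 4 of 4 sets by a ratio of -0.30 (-0.73 to 0.16). Mt2 was the 1 member past a log2 ratio of 1 in CD8 over CD4 T cells at day 13, as were 3.2% of genes, and at day 19 there were 0, against 3.21% of genes.

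CD8 T cells were next split by UMIs of Pdcd1 (the receptor PD-1), Tcf7 (a transcription factor of progenitor-like cells) and Havcr2 (TIM-3, a receptor of terminally exhausted cells), read after thinning. At day 13 Mt1 was 38.3 CPM in 1761 Pdcd1- cells, 23.8 CPM in 306 Pdcd1+ Tcf7+ cells, 101 CPM in 434 Pdcd1+ cells with neither Tcf7 nor Havcr2, and 239 CPM in 136 Pdcd1+ Havcr2+ Tcf7- cells. At day 19 the same states were at 45.2, 22.4, 277 and 120 CPM, in 814, 96, 329 and 192 cells. The Tcf7+ cells were lowest and the Tcf7- cells highest on both days, while the order of Havcr2+ and Havcr2- cells was reversed. By share of cells at equal depth the states read 6.42%, 7.52%, 15.9% and 25.7% at day 13 and 7.002%, 5.21%, 26.7% and 33.9% at day 19, which puts Havcr2+ cells highest on both days.

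The Havcr2+ Tcf7- cells of sets 1 to 4 had Mt1 at 44.1, 38.2, 118 and 609 CPM at day 13, against 3.92, 30.3, 7.44 and 51.3 CPM in their Tcf7+ cells. At day 19 they had 115, 137, 72.3 and 133 CPM against 89.7, 0, 21.8 and 7.87 CPM. Mt1 was higher in Havcr2+ cells in every set of both days, although the groups overlapped across sets. The log2 ratio was 3.33 (2.94 to 3.74) at day 13, a 10.1-fold level, and 2.43 (1.84 to 3.08) at day 19, a 5.39-fold level. The day-13 ratio was 1.52 without the set 4 clonotype, and the day-19 ratio 1.51 without day-19 set 2. Mt1 was the 1 member past a log2 ratio of 1 on each day, as were 4.01% of 5243 genes at day 13 and 4.72% of 4468 at day 19; Mt2 and Slc30a1 had too few UMIs to be counted there.

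Mt2 followed the same order at day 13, with 3.41, 1.53, 17.4 and 49.8 CPM in Pdcd1-, Tcf7+, Havcr2- Tcf7- and Havcr2+ cells. The last 2 of these states held 83 and 87 Mt2 UMIs. The day-13 set 4 clonotype, 96.7% Pdcd1+ and with 0 Tcf7+ cells, held 135 in all, so these 2 levels rested largely on it. At day 19 Mt2 was 4.65, 0, 29.6 and 6.76 CPM. Taken at a floor of 3 counts over the group, the 0 in Tcf7+ cells allows up to 2.68 CPM, so Havcr2+ cells were at least 2.52-fold and Havcr2- Tcf7- cells at least 11.04-fold higher. Slc30a1 was 10.3, 11.1, 7.74 and 7.45 CPM at day 13, with a log2 ratio of Havcr2+ to Tcf7+ cells of -0.58 (-1.65 to 0.41), and 9.31, 2.68, 9.23 and 6.76 CPM at day 19, where the Tcf7+ value rests on 3 UMIs. Among Pdcd1+ cells it thus ran opposite to Mt1 at day 13, and at day 19 in the same order as Mt1. Its day-19 log2 ratios to Tcf7+ cells were 1.33 (-0.47 to 3.75; 3 of 4 sets) in Havcr2+ and 1.78 (0.13 to 4.12; 4 of 4 sets) in Havcr2- Tcf7- cells. The Tcf7- states were the deeper ones, with median depths of 8330.5 and 10400.5 UMIs at day 13 against 6937 and 7073 in the Pdcd1- and Tcf7+ cells. CPM and thinned shares take depth into account, but its part in these levels was not tested.

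Within Pdcd1+ cells with neither Tcf7 nor Havcr2, the log2 ratio of day 19 to day 13 for Mt1 was 1.45 (1.30 to 1.61; 0.81 to 2.31 under the alternatives). In Pdcd1- cells it was 0.24 (0.05 to 0.43), which turned to -0.33 without clonotypes seen in another set, -0.11 with at least 8000 UMIs per cell, -0.27 with states read from all UMIs and -0.012 without day-19 set 1, and in Tcf7+ cells -0.09 (-0.82 to 0.60). In Havcr2+ cells it was -0.99 (-1.21 to -0.77), but 0.83 without the day-13 set 4 clonotype. Mt2 in Havcr2+ cells had a ratio of -2.88 (-3.75 to -2.10), which was -0.70 without that clonotype, and Slc30a1 in Tcf7+ cells one of -2.05 (-4.41 to -0.36) that rests on 3 UMIs at day 19.

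**Figure D2:**
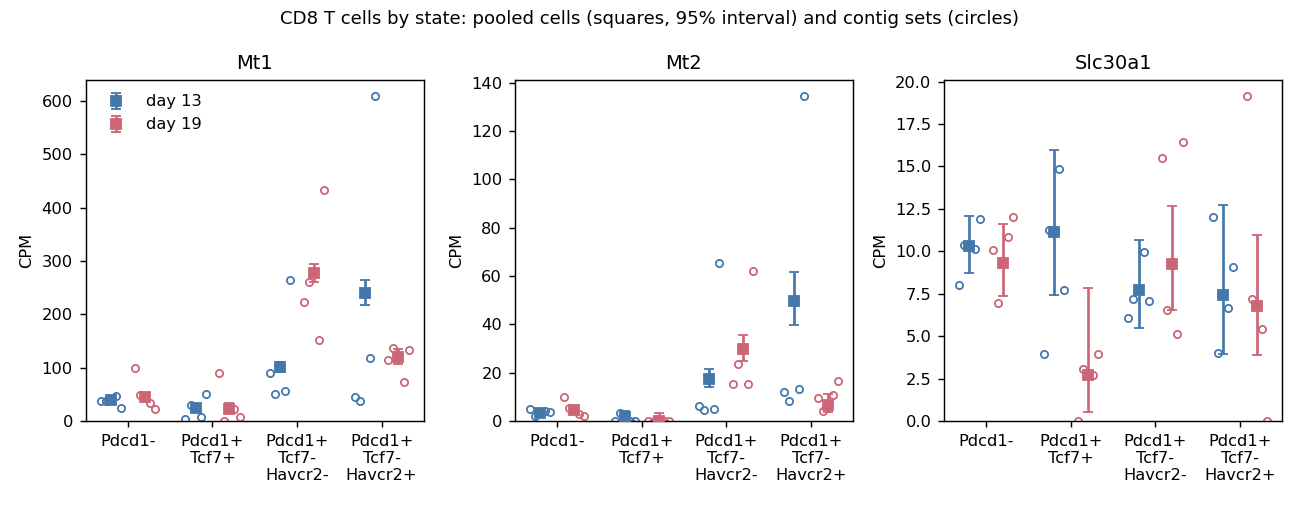
Levels of the 3 genes in CPM in CD8 T cells of each Pdcd1, Tcf7 and Havcr2 state, by day: the level over all cells with its 95% counting interval (square; day 13 blue, day 19 red), and each contig set (circle). Mt1 is lowest in Pdcd1+ Tcf7+ cells on both days (23.8 and 22.4 CPM), and set 4 of day 13 reaches 609 CPM in Havcr2+ cells.

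Both metallothioneins also differed by clone size. A clonotype is a pair of TRA and TRB CDR3 nucleotide sequences within 1 set, counted over cells with exactly 1 of each, and 3 or more cells make it expanded here. At day 13 expanded CD8 T cells had Mt1 at 182 CPM (445 cells) and single ones at 25.9 CPM (1381 cells), with 121, 52.4, 154 and 594 CPM in the expanded cells of sets 1 to 4 and 19.7, 32.0, 18.8 and 33.7 CPM in the single ones. At day 19 the levels were 256 CPM (251 cells) and 28.2 CPM (647 cells), with 375, 146, 153 and 638 CPM in expanded and 103, 9.45, 19.999 and 26.8 CPM in single cells. On neither day did a set's single cells reach the level of any set's expanded cells. At day 13 the level of set 4 rested on 1 clonotype, described further on. Expanded cells held 345 Mt1 UMIs in 415 cells without that clonotype and 340 in 390 cells without set 4. The order of expanded and single cells in set 4 is thus not claimed without it. Over all these cells the log2 ratio was 2.81 (2.62 to 3.01) at day 13 and 3.18 (2.95 to 3.42) at day 19. At equal depth 20.9% of expanded and 5.50% of single cells had an Mt1 UMI at day 13, and 32.7% and 6.18% at day 19.

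Mt2 was 32.8 CPM in expanded and 1.46 CPM in single CD8 T cells at day 13, a log2 ratio of 4.49 (3.76 to 5.30), and 34.7 and 2.09 CPM at day 19, a ratio of 4.05 (3.24 to 4.97). It was higher in expanded cells in 4 of 4 sets of each day. Slc30a1 was 8.40 against 10.4 CPM at day 13 (-0.31, -0.85 to 0.21) and 9.91 against 8.96 CPM at day 19 (0.15, -0.54 to 0.80), so its intervals span 0 on both days. Mt1 and Mt2 were 2 of the 3 members past a log2 ratio of 1 on each day, as were 3.51% of 8625 genes at day 13 and 4.26% of 7386 at day 19. This contrast took part in the choice of the genes, so nothing is read from that count. Among the ranked genes, Mt2 was in place 3 and Mt1 in place 9 of 8363 at day 13, and they were in places 7 and 18 of 7184 at day 19.

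The day-13 ratio of Mt1 was 1.62 without the set 4 clonotype and that of Mt2 2.199, both still above 1. These ratios are pooled over the sets. They do not speak for set 4, where few Mt1 UMIs of expanded cells lay outside that clonotype. For day 19 the Mt1 ratio ran from 2.42 to 3.85 over the alternatives and that of Mt2 from 3.10 to 5.75. Mt1 by clone size was 25.9, 101, 103 and 271 CPM at 1, 2, 3 to 9 and 10 or more cells at day 13, and 28.2, 88.7, 184 and 306 CPM at day 19. Clonotypes of 2 cells were above single ones on both days, though at day 19 they were at 39.3 against 41.3 CPM without set 2. The level of the largest size class rested on few cells: without the TRAV7D-2 clonotype it was 42.2 CPM at day 13, and without the 281-UMI barcode it was 149 CPM at day 19, both below that of 3 to 9 cells.

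The difference by clone size was also seen within states. In Pdcd1- cells, expanded clonotypes had Mt1 at 148 CPM and single ones at 19.4 CPM at day 13, a log2 ratio of 2.94 (2.63 to 3.24), and at 225 and 16.8 CPM at day 19, a ratio of 3.74 (3.34 to 4.15). It was higher in expanded cells in 4 of 4 sets of each day, and 1.96 to 3.85 and 2.35 to 4.44 over the alternatives. In Pdcd1+ Tcf7- cells the ratio was 1.83 (1.52 to 2.14; 213 against 59.9 CPM) at day 13 and 1.79 (1.44 to 2.15; 272 against 79.0 CPM) at day 19, in 3 of 4 sets each. There the day-13 ratio was -0.23 without the set 4 clonotype, and the day-19 ratio 0.63 without day-19 set 4. Mt2 in these cells had a day-13 ratio of 3.44 (2.36 to 4.78), which was 0.39 without that clonotype. In CD4 T cells the expanded and single levels were 109 and 39.9 CPM at day 13, from 12 expanded cells with 11 Mt1 UMIs, and 78.6 and 132 CPM at day 19. Both directions turned with no limit on the myeloid genes, from a log2 ratio of 1.44 to -0.30 at day 13 and from -0.74 to 0.025 at day 19, and the latter was 0.40 without day-19 set 2.

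**Figure D3:**
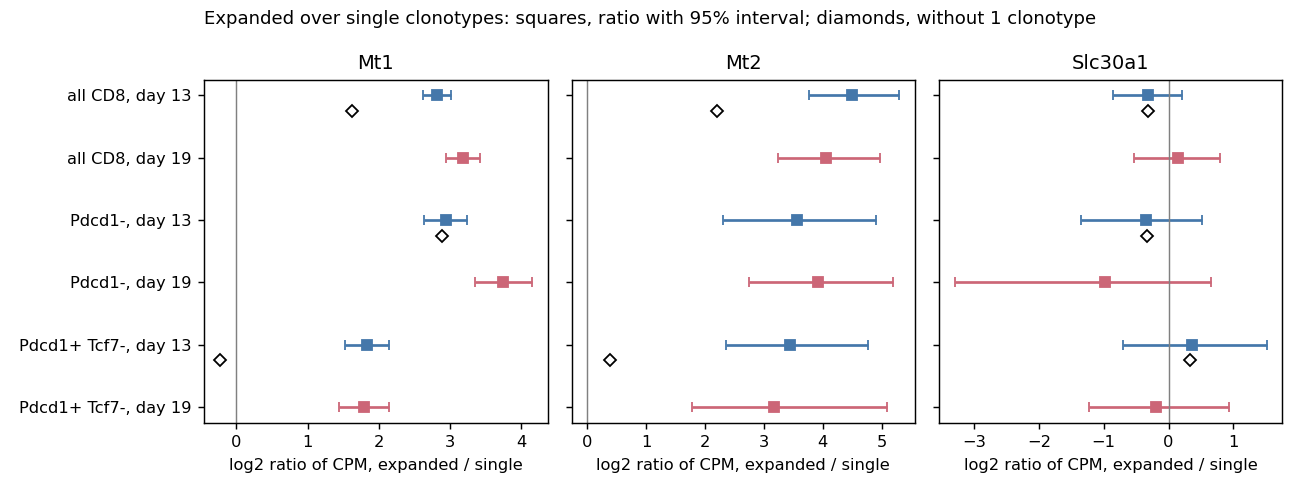
Log2 ratio of expanded to single CD8 clonotypes for the 3 genes, over all CD8 T cells and within Pdcd1- and Pdcd1+ Tcf7- cells, with 95% counting intervals (squares; day 13 blue, day 19 red), and the day-13 ratio without the set 4 clonotype (diamonds; none for Mt2 in Pdcd1- cells, which had too few UMIs). Mt1 in Pdcd1+ Tcf7- cells of day 13 moves from 1.83 to -0.23 without that clonotype, and the intervals of Slc30a1 span 0.

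That clonotype had TRAV7D-2 TRAJ7 with TRBV16 TRBJ2-7 and 30 CD8 T cells, all in set 4 of day 13, or 1.13% of the CD8 T cells of that day. It was singled out after its values were seen, as the clonotype of 10 or more cells with the highest share of cells with Mt1. It held 565 Mt1 UMIs, 36.6% of those in day-13 CD8 T cells, and 135 Mt2 UMIs, 60.0% of them. Its Mt1 level was 829 CPM (762 to 900), its Mt2 level 198 CPM (166 to 235) and its Slc30a1 level 8.81 CPM, from 6 UMIs. After thinning, 26 of the 30 cells (86.7%) had an Mt1 UMI, and the UMIs per cell before thinning ran from 0 to 100 with a median of 12. The high level was thus spread over most of its cells.

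The cells of this clonotype had a median of 20377 UMIs, 96.7% were Pdcd1+, 60.0% had Havcr2 and 63.3% were cycling. The other 9 clonotypes of 10 or more cells at day 13 had 165 cells together, with Mt1 at 42.2 CPM, Mt2 at 2.41 CPM and 28.5% of cells cycling. The log2 ratios to these clonotypes were 6.36 for Mt2 and 4.30 for Mt1, places 2 and 5 of 3272 ranked genes. Mt1 and Mt2 were past a log2 ratio of 1, as were 4.35% of 3399 genes. The clonotype was picked by its share of cells with Mt1, and Mt2 in CD8 T cells was mostly in cells with Mt1. Nothing is therefore read from these ratios, places and calls. The other genes of highest ratio, named after their values were seen, were Gzmf and Gzmc (granzymes), Serpine2, Nrgn, Igfbp7 and C1qtnf6. The macrophage markers other than Fcer1g were at 45.5 CPM in this clonotype and 72.9 CPM in the other large ones, with Csf1r at 0, and Fcer1g was at 735 against 72.3 CPM.

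Size and Pdcd1 did not go with Mt1 in every clonotype. The other day-13 clonotype of 30 cells (TRAV5-1 TRAJ12, TRBV1 TRBJ1-1, set 2) was 96.7% Pdcd1+ and 40.0% cycling, with a median depth of 12206.5 UMIs, and had 1 Mt1 UMI. After thinning 0 of its 30 cells had one, which allows a share of up to 11.6%. Cells with the same 4 segments as the high clonotype, TRAV7D-2 TRAJ7 and TRBV16 TRBJ2-7, were found in other sets. At day 13 there were 2 in set 2 at 159 CPM of Mt1 and 2 in set 3 at 448 CPM, from 5 and 19 UMIs. At day 19 there were 62 such cells at 154 CPM (129 to 183), with 167 CPM in set 2 and 148 CPM in set 3. The day-19 cells of these segments were thus near the Mt1 level of other large CD8 clonotypes of day 19, TRAV6D-5 TRAJ27 with 57 cells at 133 CPM and TRAV8-1 TRAJ26 of TRBV10 with 18 cells at 162 CPM. The remaining 2 day-19 clonotypes of 10 or more cells held no CD8 T cell and had 28.2 and 19.5 CPM. The 281-UMI barcode belonged to a TRAV14D-1 clonotype of 10 cells in day-19 set 4, which was at 2470.5 CPM with it and 145 CPM without it.

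**Figure D4:**
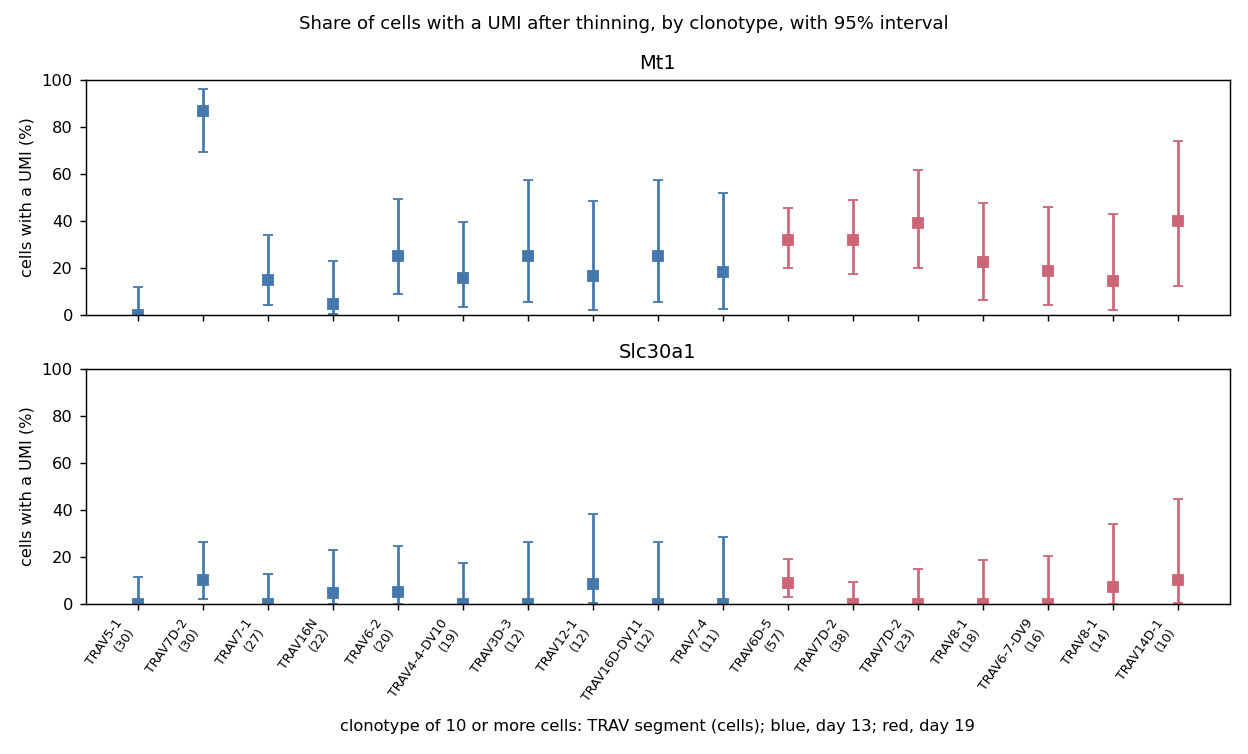
Share of cells with a UMI of Mt1 (top) and Slc30a1 (bottom) after thinning, in percent with 95% intervals, for each clonotype of 10 or more cells, named by its TRAV segment with its cell number (day 13 blue, day 19 red). Mt1 was in 86.7% of the cells of the day-13 TRAV7D-2 clonotype and in 0 of 30 of the equally large TRAV5-1 clonotype, and Slc30a1 was in at most 10.0% of the cells of any of them.

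Few cells carried most of the metallothionein UMIs. At day 13, 38 CD8 T cells (1.44%) had 10 or more Mt1 UMIs and held 57.1% of the Mt1 and 68.9% of the Mt2 UMIs; 22 of them were in set 4 and 26 were cycling. At day 19 there were 31 such cells (2.16%), with 60.6% of the Mt1 and 63.3% of the Mt2 UMIs, and 14 were cycling. The cut was on UMIs before thinning, which favors deep cells. These CD8 T cells had median depths of 23069 and 16230 UMIs, against 7126 and 8792 over all cells that entered. How many of the 38 were of the TRAV7D-2 clonotype was not counted, but its 30 cells had a median of 12 Mt1 UMIs. In CD4 T cells 3 cells at day 13 and 12 at day 19 reached 10 UMIs, with 20.3% and 60.2% of the Mt1 UMIs, and 8 of those 12 had Foxp3. Of the CD8 cells with 10 or more Mt1 UMIs, 30 of 38 and 27 of 31 had no UMI of C1qa, Lyz2 or Csf1r, against 0 of 3 and 7 of 12 of the CD4 cells. All cells had passed the limit of 3 UMIs of these genes, and the shares of cells with less Mt1 were not counted. No difference from those cells is read here.

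In CD8 T cells, Mt2 was found mostly in cells with Mt1, while most cells with Mt1 had no Mt2. After thinning, Mt2 was in 13.3% of the 241 day-13 CD8 T cells with Mt1 and in 0.333% of the 2405 without it. At day 19 the shares were 11.5% of 217 and 0.410% of 1219. Of the 40 day-13 CD8 T cells with Mt2, 15 were of the TRAV7D-2 clonotype, and the shares without it were not counted. In CD4 T cells Mt2 was in 1 of 54 cells with Mt1 and 1 of 445 without at day 13, and in 17.6% and 1.65% at day 19. Slc30a1 was in 5.39% of CD8 T cells with Mt1 and 5.20% of those without at day 13. At day 19 it was in 7.37% and 4.43%, intervals of 4.27% to 11.7% and 3.35% to 5.74%. Over the 16 sums of class and contig set, the Pearson correlation of log2(CPM + 10) was 0.91 for Mt1 with Mt2, -0.47 for Mt1 with Slc30a1 and -0.41 for Mt2 with Slc30a1. Of 5594 genes, those most like Mt1 were Gtf2h5 (0.87), Ndufa11 (0.86) and Ptpa (0.86), those most like Mt2 were Gtf2h5 (0.90), Anapc13 (0.87) and Cyc1 (0.87), and those most like Slc30a1 were Trnt1 (0.89), Mcrs1 (0.88) and Fam114a2 (0.86). These sums share their capture within a day and differ in cell number, and the correlations are a description.

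Cycling cells were those with 2 or more UMIs in 10 cell-cycle genes after thinning, set against cells with none. In CD8 T cells Mt1 was 147 CPM in cycling and 27.1 CPM in other cells at day 13, a log2 ratio of 2.44 (2.27 to 2.61; 4 of 4 sets), and 140 and 91.2 CPM at day 19, a ratio of 0.62 (0.48 to 0.77; 3 of 4 sets). Mt2 had ratios of 3.34 (2.80 to 3.92) and 1.03 (0.53 to 1.54). Without the set 4 clonotype the Mt1 ratio of day 13 was 1.78, and at day 19 it was -0.10 without set 4. The Mt2 ratio of day 19 was -0.13 without set 4 and -0.33 without clonotypes seen in another set. Slc30a1 went the other way, at 7.16 CPM in cycling and 10.5 CPM in other cells at day 13 (-0.55, -1.06 to -0.07) and 5.45 and 10.1 CPM at day 19 (-0.89, -1.52 to -0.30), lower in 4 of 4 sets of each day. Its ratios were -0.26 with at least 8000 UMIs per cell at day 13 and between -1.19 and -0.56 over the alternatives at day 19. Mt1 and Mt2 were past a log2 ratio of 1 at day 13, as were 8.48% of 9053 genes, and Mt2 alone at day 19, as were 6.77% of 8325 genes.

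Cycling cells were deeper, with a median of 15424 against 6767 UMIs at day 13 and 16430 against 7821 at day 19; the part of depth was not tested. Within Pdcd1- CD8 T cells, cycling cells had Mt1 at 114 against 19.4 CPM at day 13 and 51.6 against 29.9 CPM at day 19. Within Pdcd1+ Tcf7- cells the levels were 196 against 63.3 CPM and 246 against 208 CPM. The difference held without set 4 in Pdcd1- cells (126 against 20.8 CPM at day 13, 59.6 against 35.2 CPM at day 19), though the day-13 levels were 64.2 against 25.6 CPM without set 3. Without clonotypes seen in another set the day-19 levels were 29.0 against 15.8 CPM. In Pdcd1+ Tcf7- cells the day-13 levels were 58.0 against 50.3 CPM without the TRAV7D-2 clonotype and turned to 39.8 against 47.6 CPM without clonotypes seen in another set. The day-19 levels there turned to 146 against 208 CPM without the 281-UMI barcode and 147 against 227 CPM without set 4, were 144 against 249 CPM without clonotypes seen in another set, and moved the other way, to 348 against 105 CPM, without set 2. In CD4 T cells the Mt1 ratio of cycling to other cells was -0.36 (-1.01 to 0.24) at day 13 and 1.97 (1.69 to 2.25) at day 19, and 0.78 with at most 10 UMIs counted per cell.

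Among CD4 T cells, cells were split by Foxp3, the defining transcription factor of regulatory T cells. The level was 64.1 CPM in Foxp3+ and 35.1 CPM in Foxp3- cells at day 13, a log2 ratio of 0.87 (0.43 to 1.30; 3 of 4 sets) that turned to -0.41 with no limit on the myeloid genes. At day 19 the sets had 419, 304, 143 and 257 CPM in Foxp3+ cells and 129, 98.3, 38.1 and 28.3 CPM in Foxp3- cells, groups that did not overlap. The levels were 274 and 75.2 CPM, a log2 ratio of 1.87 (1.60 to 2.13), which was 0.70 with no limit on the myeloid genes and 1.26 without cycling cells. Mt1 was thus past a log2 ratio of 1 at day 19, as were 2.14% of 4997 genes. At day 13 the members had 0 past it, against 1.4% of 5502 genes.

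Mt1 was higher at day 19 in both CD4 groups, with a log2 ratio of day 19 to day 13 of 2.10 (1.73 to 2.47) in Foxp3+ and 1.10 (0.76 to 1.44) in Foxp3- cells. Foxp3+ cells of day 19 that also had Pdcd1 were at 460 CPM and those without at 150 CPM. Mt2 at day 19 was 20.9 CPM in Foxp3+ and 9.55 CPM in Foxp3- cells, a ratio of 1.13 (0.26 to 2.00). By Pdcd1 alone, the Mt1 ratio of Pdcd1+ to Pdcd1- CD4 T cells was -0.08 (-0.52 to 0.36) at day 13 and 0.56 (0.29 to 0.82) at day 19, the latter -0.72 without day-19 set 2. As in CD8 T cells, day-19 Pdcd1+ CD4 T cells with Tcf7 had less Mt1 (22.3 CPM) than those with neither Tcf7 nor Havcr2 (236 CPM).

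Other genes of zinc and metal handling were counted past a log2 ratio of 1 in either direction. Between the days 4.02% of 10052 genes in CD8 T cells and 3.75% of genes in CD4 T cells passed it, and in CD8 over CD4 T cells 9.45% at day 13 and 9.47% at day 19. At day 13 and day 19 it was passed by 7.99% and 7.54% of genes in Havcr2+ over Tcf7+ cells, 6.38% and 7.92% in expanded over single clonotypes, 13.1% and 8.74% in cycling cells and 3.05% and 4.14% in Foxp3+ over Foxp3- cells, and by 15.2% in the TRAV7D-2 clonotype. Counts of 0 or 1 in a short list are near these shares. Of the 10 zinc exporters of the Slc30a family, 6 had 100 UMIs in CD8 T cells of both days together and 0 of them passed a log2 ratio of 1 in either direction between the days, with a median of -0.04 against -0.04 over all genes. No exporter passed it in the 12 of 13 comparisons in which at least 1 had 100 UMIs. Of the 14 importers of the Slc39a family only Slc39a4 did, at 22.8 CPM in expanded and 11.2 CPM in single CD8 T cells of day 19 (1.02). Of 18 genes of metal handling and redox, 16 were measured between the days in CD8 T cells, and only Mt3 passed the fold.

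Mt3, the metallothionein best known from brain, was 12.1 CPM in CD8 T cells at day 13 and 4.93 CPM at day 19 (log2 ratio -1.29), and 6.93 and 21.0 CPM in CD4 T cells (1.60). Of its 292 day-13 CD8 UMIs, 59 (20.2%) were in the TRAV7D-2 clonotype. Mt3 was thus lower at day 19 in CD8 T cells, where Mt1 was higher. It was also higher in expanded (2.57) and in cycling (2.16) CD8 T cells of day 13, and lower in CD8 than in CD4 T cells at day 19 (-2.09). Cox17, a copper chaperone of mitochondria, was higher in Havcr2+ than in Tcf7+ cells on both days (1.06 and 1.35) and in expanded cells on both days (1.00 and 1.34), while the iron transporter Slc11a2 was lower in expanded day-19 cells (-1.42) and in cycling day-13 cells (-1.18). Hmox1, heme oxygenase, was lower in CD8 than in CD4 T cells at day 13 (-1.41).

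Of 9 glucocorticoid-responsive genes, 8 were measured between the days in CD8 T cells and 0 passed the fold, with a median of -0.29 against -0.04 over all genes. In cycling CD8 T cells of day 13, where Mt1 and Mt2 were higher, Tsc22d3 (-1.20) and Klf9 (-1.30) were lower and Fkbp5 (1.22) was higher. Klf9 was lower in expanded day-13 cells (-1.63) and Sgk1 in expanded day-19 cells (-1.24). In the TRAV7D-2 clonotype, against the other large ones, Dusp1 (-1.59) and Tsc22d3 (-1.08) were lower and Sgk1 (1.12) higher. Ddit4 was lower in CD8 than in CD4 T cells at day 13 (-1.13) and higher in Foxp3+ than in Foxp3- CD4 T cells at day 19 (1.14). Each median rests on 5 to 8 genes, and the relation of this list to Mt1 was not tested. The median was -0.80 against 0.08 in cycling and -0.51 against 0.12 in expanded cells of day 13, and -0.46 against 0.08 and -0.35 against 0.05 at day 19. For Havcr2+ over Tcf7+ cells it was -0.27 against 0.12 at day 13 and -0.36 against -0.04 at day 19, and for the TRAV7D-2 clonotype -0.65 against 0.01. In Foxp3+ over Foxp3- CD4 T cells it was 0.28 against 0.01 at day 13 and 0.07 against 0.02 at day 19.

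RNA of other cells in the captures also held the members, with more Mt1 at day 19 than at day 13. Barcodes of 10 to 100 UMIs, taken as free RNA, had Mt1 at 57.6 CPM at day 13 and 103 CPM at day 19, Mt2 at 5.18 and 9.40 CPM, and Slc30a1 at 11.6 and 11.3 CPM. Barcodes outside the contig tables with over 50 macrophage UMIs had Mt1 at 119 and 258 CPM. Contig barcodes over the limit of 3 myeloid UMIs had it at 121 and 214 CPM. For Mt1, free RNA was below the level of expanded CD8 T cells on both days (182 and 256 CPM) and below that of Pdcd1+ Tcf7- cells (138 and 220 CPM). Without the TRAV7D-2 clonotype the day-13 levels were 79.8 CPM in expanded and 59.0 CPM in Pdcd1+ Tcf7- cells, the latter close to free RNA, and 41.7 CPM in all CD8 T cells, below it. The Mt1 level of single and Tcf7+ CD8 T cells was below that of free RNA on both days. Slc30a1 in CD8 T cells (9.64 and 8.48 CPM) was below its level in free RNA on both days. A level in free RNA is a share of that RNA and not a floor for a cell. How much of a cell's UMIs came from free RNA was not estimated. Mt2 in day-13 CD8 T cells without the clonotype (3.83 CPM) was also below free RNA. In CD4 T cells Mt1 and Mt2 were below it at day 13 (42.9 and 1.79 CPM) and above it at day 19 (136 and 13.0 CPM). Mt1 was below it in Foxp3- cells (35.1 and 75.2 CPM) and above it in Foxp3+ cells (64.1 and 274 CPM) on both days. The part of free and macrophage RNA in the difference between days was not tested.

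All 8 markers of the macrophage list had UMIs in CD8 T cells, and their sum was 238 CPM at day 13 and 690 CPM at day 19. Fcer1g alone made 164 and 607 CPM of this, and the other 7 together were 74.1 and 82.7 CPM. These 7 were 72.0 CPM in expanded and 69.9 CPM in single CD8 T cells at day 13, and 82.9 and 76.0 CPM at day 19. By state they were 82.4, 70.7 and 69.3 CPM in Tcf7+, Havcr2- Tcf7- and Havcr2+ cells at day 13, and 60.9, 81.1 and 112 CPM at day 19. Fcer1g was higher in expanded than in single cells, as Mt1 was, at 206 CPM in expanded and 168 CPM in single cells at day 13 and 834 and 293 CPM at day 19. Across the same 3 states it was 81.3, 171 and 316 CPM at day 13 and 187, 932 and 1151 CPM at day 19, where Mt1 was higher in Havcr2- Tcf7- than in Havcr2+ cells. Its part in the Mt1 levels was not tested. In CD4 T cells the other 7 were at 134 and 190 CPM. Markers of NK cells in CD8 T cells were at 12.2 and 34.6 CPM, of glia at 64.9 and 49.9 CPM and of dendritic cells at 149 and 54.0 CPM, and neutrophil markers were at 0. The dendritic cell markers were at 136 CPM in expanded and 146 CPM in single CD8 T cells at day 13 and at 124 and 36.6 CPM at day 19. By state they were at 251, 169 and 181 CPM in Tcf7+, Havcr2- Tcf7- and Havcr2+ cells at day 13, and at 124, 16.5 and 21.1 CPM at day 19. The NK cell markers were at 5.37, 1.26 and 1.15 CPM in these states at day 13 and at 8.95, 37.9 and 20.7 CPM at day 19, the order of Mt1 at day 19, and at 0.40 CPM in expanded against 17.5 CPM in single cells at day 13 and 29.1 against 36.4 CPM at day 19. In CD4 T cells the dendritic cell markers went from 395 to 65.3 CPM and the B cell markers from 103 to 9.02 CPM between the days. The part of these markers was not tested. The choroid plexus gene Ttr went from 4 to 1840 UMIs in CD8 T cells, in 5 cells at day 19, and none of the 31 cells with 10 or more Mt1 UMIs had it.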

How the data were processed

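The members and the gene lists were chosen with earlier results of these data known. Per the file headers and the submitters' processing notes, the deposited files give unnormalized UMI counts for every gene in every barcode, made with Cell Ranger 4.0.0 on build mm10; the notes also name bcl2fastq 2.20, STAR 2.7.5c, Seurat and R 4.1.2. Symbols were taken as the feature tables give them. Gene UMIs totalled 144565182 at day 13 and 81224453 at day 19.

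Counts were summed per group and divided by the group's gene UMIs (Python 3.11.15, numpy 2.4.6, scipy 1.17.1, pandas 2.3.3, matplotlib 3.10.9). Ratios have exact conditional binomial intervals and shares Clopper-Pearson intervals, at 95%. With 1 capture per day no test between groups was made and no p-value is given. No doublet caller was run; leaving out the deepest 5% of cells, or cells with more than 1 TRB contig, stands among the alternatives. A gene counted as past the fold had at least 100 UMIs over both sums together and a log2 ratio of 1 or more; 100 in each sum is a stricter reading of the rule. Named genes were the 3 members, list genes past the fold (at most 4 per list and comparison) and the 3 genes most correlated with each member, among genes with a mean of 20 CPM; Ttr and the genes of highest ratio in the TRAV7D-2 clonotype were named after their values were seen. States and cycling were read after thinning with seed 45. The intervals were tested on simulated data.

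Alternatives were deeper or shallower cell filters, no myeloid limit, other class, state and clonotype definitions, equal weight of cells or sets, and leaving out cells, clonotypes or each set. Leaving out the TRAV7D-2 clonotype, 100 UMIs in each sum, counting at most 10 UMIs of a member per cell, and the levels by clone size and cycling without that clonotype, 1 barcode, recurring clonotypes or 1 set were chosen after seeing the data. Antibody tag counts were not used.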

Additional observations from a re-analysis of the deposited data

Results flagged for a closer look

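Of 12 groups of 4 contig sets (3 genes, both classes, both days), 3 held a set far from the others by Dixon's ratio, the gap to the nearest set over the whole range, at its 95% critical value. Among independent replicates chance marks about 5% of groups, or 1 in 20. The sets are not shown to be that, and the genes were chosen by measured values, so the marks are a description and no test. Mt1 in CD8 T cells of day 13 was 147 CPM in set 4, above the other sets, with a ratio of 0.930, and Mt2 in the same cells was 32.2 CPM in set 4, with a ratio of 0.927. Both are 1 pattern, since they went with the TRAV7D-2 clonotype of that set, without which set 4 was at 29.4 CPM for Mt1 and 3.55 CPM for Mt2, within or below the range of the other sets. Mt1 in CD8 T cells of day 19 was 62.3 CPM in set 3, below the other sets, with a ratio of 0.880; without the barcode of 281 Mt1 UMIs, set 4 of that day was at 48.5 CPM, below set 3.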

How the results depend on the processing

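Each ratio of Mt1, Mt2 and Slc30a1 was recomputed under each alternative. Of the values of Mt1, 569 stayed within the spread of the sets or the counting interval, 7 moved beyond it and 29 changed sign. For Mt2 these were 354, 23 and 3, and for Slc30a1 376, 6 and 0. A change of sign was counted only where the interval of the main ratio excluded 0. Other changes of sign stand among the values that stayed or moved, so the 0 of Slc30a1 does not count all of its changes. The cause of each change was not tested.

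Without the TRAV7D-2 clonotype of day-13 set 4, the Mt1 log2 ratio of CD8 to CD4 T cells at day 13 (0.57) was -0.041, that of Havcr2+ to Tcf7+ CD8 T cells at day 13 (3.33) was 1.52, that of expanded to single Pdcd1+ Tcf7- cells at day 13 (1.83) was -0.23, and that of day 19 to day 13 in Havcr2+ cells (-0.99) was 0.83; the Mt2 ratio of Havcr2+ to Tcf7+ cells (5.02) was 2.84. Without the 3 largest clonotypes of each day, these Mt1 values, the one within Pdcd1+ Tcf7- cells aside, were -0.012, 1.59 and 0.74, and the Mt2 value 2.93. Without clonotypes seen in another set they were -0.15, 1.03 and 1.35, and 2.42 for Mt2; there, the Mt2 ratio of expanded to single Pdcd1+ Tcf7- cells at day 13 (3.44) was -0.14, Mt1 of CD8 to CD4 T cells at day 19 (-0.25) was -0.77, Mt1 of cycling to other CD8 T cells at day 19 (0.62) was -0.093 and Mt2 (1.03) -0.33, and Mt1 of day 19 to day 13 in Pdcd1- cells (0.24) was -0.33.

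With no limit on the myeloid genes, Mt1 of CD8 to CD4 T cells at day 13 was -0.22 and Slc30a1 (-0.30) was -0.11, Mt1 of Foxp3+ to Foxp3- CD4 T cells at day 13 (0.87) was -0.41, Mt1 of expanded to single CD4 T cells was -0.30 at day 13 (1.44) and 0.025 at day 19 (-0.74), Mt1 and Mt2 of Pdcd1+ to Pdcd1- CD4 T cells at day 19 (0.56 and 0.93) were -0.083 and 0.076, and Mt1 of day 19 to day 13 in Havcr2+ cells was 0.11. Without the deepest 5% of cells, Mt1 of CD8 to CD4 T cells was -0.18 at day 13 and 0.024 at day 19; without cycling cells it was -0.38 and 0.36. With at least 8000 UMIs per cell, Slc30a1 of cycling to other CD8 T cells at day 13 (-0.55) was -0.26 and Mt1 of day 19 to day 13 in Pdcd1- cells was -0.11. With states read from all UMIs, the latter was -0.27 and Mt2 of Pdcd1+ to Pdcd1- CD4 T cells at day 19 was 1.93. With at most 10 UMIs per cell, Mt1 of cycling to other CD4 T cells at day 19 (1.97) was 0.78.

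Leaving out each contig set in turn gave these ranges for Mt1: CD8 to CD4 T cells -0.037 (day-13 set 4) to 1.22 (set 3) at day 13 and -0.36 (day-19 set 4) to 0.077 (set 2) at day 19; expanded to single Pdcd1+ Tcf7- cells at day 13 -0.13 (set 4) to 2.89 (set 2); Pdcd1+ to Pdcd1- CD4 T cells at day 19 -0.72 (set 2) to 0.79 (set 3); cycling to other CD8 T cells at day 19 -0.10 (set 4) to 1.77 (set 2); expanded to single CD4 T cells at day 19 -1.01 (set 3) to 0.40 (set 2); day 19 to day 13 in Pdcd1- cells -0.012 (day-19 set 1) to 0.45 (day-19 set 4) and in Havcr2+ cells -1.41 (day-13 set 2) to 0.80 (day-13 set 4). For Mt2 they were 2.59 (set 4) to 5.05 (set 1) in Havcr2+ to Tcf7+ cells at day 13 and -0.13 (set 4) to 2.36 (set 2) in cycling to other CD8 T cells at day 19.

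With 30 UMIs in place of 100, the share of genes past the fold between the days was 2.66% in CD8 and 2.58% in CD4 T cells, and with a log2 ratio of 2 it was 0.308% and 0.0960%. Ratios with under 30 member UMIs, or with 3 or fewer in a sum, were given as values only. With 100 UMIs required in each sum, Mt1 was past the fold in 5 comparisons in place of 8, without both Havcr2 comparisons and the TRAV7D-2 clonotype, and Mt2 in 0 in place of 6. Calls of list genes then went from 23 to 9, and the share of all genes past the fold in CD8 T cells between the days was 0.929%. Between the days no paired analysis was possible because each has 1 sample of a kind and their set numbers name different tables. Within a day the groups were compared set by set, as the counts of sets beside the ratios.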
